A study of Macaca mulatta with 12 samples.

Results

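The nuclear-encoded respiratory chain genes described here are the rows of the deposited count table whose symbol begins with NDUFA, NDUFB, NDUFC, NDUFS, NDUFV, UQCR, ATP5 or SDHA to SDHD, or is COX followed by a digit. This rule on symbols found 78 of 19708 rows, and it used no measured value. The study sequenced RNA of single nuclei from frozen rhesus macaque amygdala, a temporal lobe structure of the emotion and memory circuits, to sort its cells into molecular types. The labels list 12 samples in 1 group, titled by specimen number up to 3 and library number up to 4, with no treatment, age or genotype stated. All nuclei were deposited in 1 table with 3 barcode suffixes, called barcode sets here, and no label ties a set to a specimen, so the nuclei form 1 pool. No replicate error can be given for this pool, and nothing was tested over animals. Each interval is an exact 95% interval that covers counting error only, and the barcode sets show only whether a direction recurs.

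The respiratory chain of the inner mitochondrial membrane passes electrons from NADH through complex I, or from succinate through complex II, to complex III and then to oxygen at complex IV. The proton gradient so built drives ATP synthase. Most subunits are encoded in the nucleus and imported, and neurons are known for a high demand for this ATP, whereas astrocytes are known for strong glycolysis. In nuclei, UMIs (unique molecular identifiers, counted as transcripts) of these genes reflect nuclear RNA and whatever cytoplasmic RNA came with it, not protein or activity.

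Over all 26400 nuclei deposited, the 78 rows held 305234 UMIs, 0.201% of all, with a median of 10 UMIs per nucleus. Without presumed doublets, 24538 nuclei were kept for the classes below. Of the rows, 32 belong to complex I, with 6 core subunits, 18 accessory subunits and 8 assembly factors. Complex II has 3 subunits and 4 assembly factors, complex III has 3 subunits, and complex IV has 13 subunits and 7 assembly factors. ATP synthase has 14 subunits and its inhibitor ATP5IF1, and COX7A2L is a factor of supercomplexes, assemblies of whole complexes. UMIs per row ranged from 6 to 30526, and NDUFAF2, a complex I assembly factor, alone held 10% of them. COX17, SDHD, COX4I2, SDHAF1, COX7AH, COX6B2 and COX7A2L each had under 100 UMIs, too few to compare between classes. COX7AH is the name the table uses for COX7A1, by the RefSeq table of assembly T2T-MMU8v2.0. A further 7 rows carry Ensembl identifiers that a reference table names as NDUFA6, SDHA, SDHD, NDUFA11, NDUFB1, COX7C and COX7A2, and they lie outside the rule on symbols. COX7C and SDHD thus have 2 rows each.

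Nuclei were clustered without the respiratory chain genes and named from markers, which gave 10 classes of 108 to 11078 nuclei. Median UMIs per nucleus ranged from 1116.5 in microglia to 7925 in excitatory neurons. The cluster named mural also carried fibroblast markers, at 655 UMIs per 1000000 UMIs of the class (CPM), and its mural score of 5.28 was not far above its fibroblast score of 4.49. Another 1134 nuclei (4.62%) stayed unnamed, among them a cluster of 713 nuclei with a median of 597 UMIs, the low-UMI cluster. The neuronal markers RBFOX3, SYT1 and SNAP25 summed to 4628 CPM in excitatory neurons and still to 1016 to 1802 CPM in the glial and vascular classes, and to 3680 CPM in the low-UMI cluster. The part of RNA from other cells in the differences below was not tested. Of 26332 barcode sequences, 68 occurred in more than 1 set.

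Per total UMIs, the summed respiratory chain level was lowest in excitatory neurons and highest in microglia, a 1.28-fold range over 10 classes, whereas under median-ratio scaling the lowest were endothelial cells (2035 scaled CPM) and the highest inhibitory neurons (2365). Excitatory neurons stood at 1935 CPM (95% interval 1926 to 1943), with 1942, 1927 and 1934 CPM in the 3 barcode sets. Inhibitory neurons stood at 2186 CPM (2167 to 2204) and astrocytes at 2285 CPM (2256 to 2314). The sets of these 3 classes did not overlap between excitatory neurons and either of the others. Microglia had 2485 CPM (2295 to 2687) and mural cells 2378 CPM (2193 to 2574). These intervals overlapped each other and that of astrocytes. Oligodendrocyte precursors, endothelial cells, ependymal cells, committed oligodendrocyte precursors and oligodendrocytes lay between 2056 and 2170 CPM, and neighbours in this order did not differ beyond their intervals. Under median-ratio scaling, which divides each class by the median ratio of 1819 genes to their geometric mean over classes, excitatory neurons had 2194 and astrocytes 2333 scaled CPM, so that astrocytes stayed above excitatory neurons and lay below inhibitory ones.

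**Figure D1:**
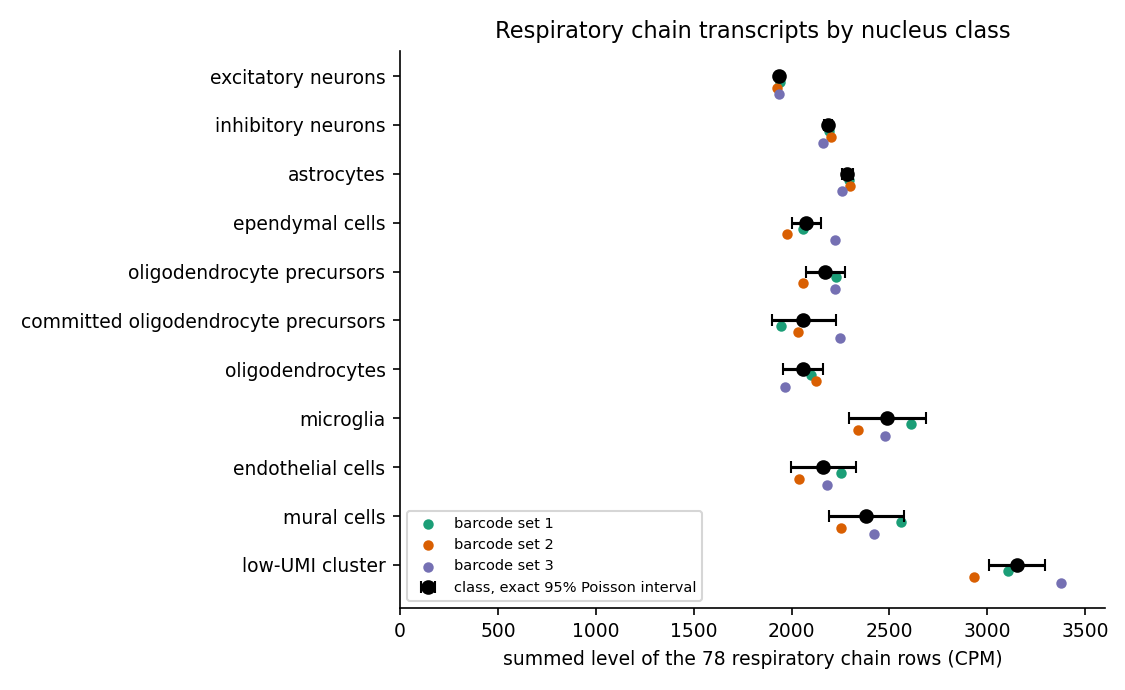
Summed level of the 78 respiratory chain rows in CPM (x axis) in each class and in the low-UMI cluster (y axis), with exact 95% Poisson intervals in black and the 3 barcode sets as coloured points. Excitatory neurons, at 1935 CPM, are the lowest class on this scale of total UMIs, but not under median-ratio scaling. After thinning they were level with committed oligodendrocyte precursors. The low-UMI cluster, at 3150 CPM, lies to the right of every named class.

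Per nucleus the order was the reverse at its ends, since excitatory nuclei hold the most RNA. The median excitatory nucleus had 15 respiratory chain UMIs, the median inhibitory nucleus 12, the median astrocyte 4 and the median microglial nucleus 3. With every nucleus thinned to 1000 UMIs, which left out 2 excitatory, 513 astrocyte and 61 microglial nuclei, excitatory neurons had 1936 CPM, inhibitory neurons 2171, astrocytes 2294 and microglia 2602 CPM. Thinning thus kept the order of these 4 classes. Thinned committed oligodendrocyte precursors (107 nuclei) had 1935 CPM, level with excitatory neurons. At 2000 to under 4000 UMIs, oligodendrocytes had 1906 CPM (1744 to 2080) and excitatory neurons 1939 CPM. With depth taken into account, excitatory neurons were thus not set apart as the lowest class.

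Pooled over classes, the level was higher in bins of nuclei with fewer UMIs. Over all nuclei kept it was 2789 CPM in nuclei under 1000 UMIs, 2313 at 1000 to under 2000, 2107 at 2000 to under 4000, 2037 at 4000 to under 8000 and 1952 at 8000 and over. Of the 1239 nuclei under 1000 UMIs, 528 belonged to the low-UMI cluster, so the bins also differ in their mix of classes. Astrocytes had 2226, 2342, 2223 and 2136 CPM over the first 4 bins, with the highest value in the second. Excitatory neurons had 2237 CPM at 1000 to under 2000 UMIs (65 nuclei, interval 1967 to 2533) and then 1939, 1969 and 1918 CPM. In inhibitory neurons the values over these 4 bins were 1995 (83 nuclei), 2138, 2176 and 2222 CPM, higher in the deeper bins. Ependymal cells went from 2345 to 2155 and 2010 CPM over the first 3 bins, and the low-UMI cluster from 3683 to 2628 and 2421 CPM. With 890 excitatory and 1647 astrocyte nuclei, at 2000 to under 4000 UMIs, excitatory neurons were still lower than astrocytes (log2 −0.20, interval −0.25 to −0.15). At 4000 to under 8000 UMIs the log2 ratio was −0.12 (−0.22 to −0.01). At 1000 to under 2000 UMIs, with 65 and 3783 nuclei, it was −0.07 (−0.25 to 0.11), an interval that held 0.

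**Figure D2:**
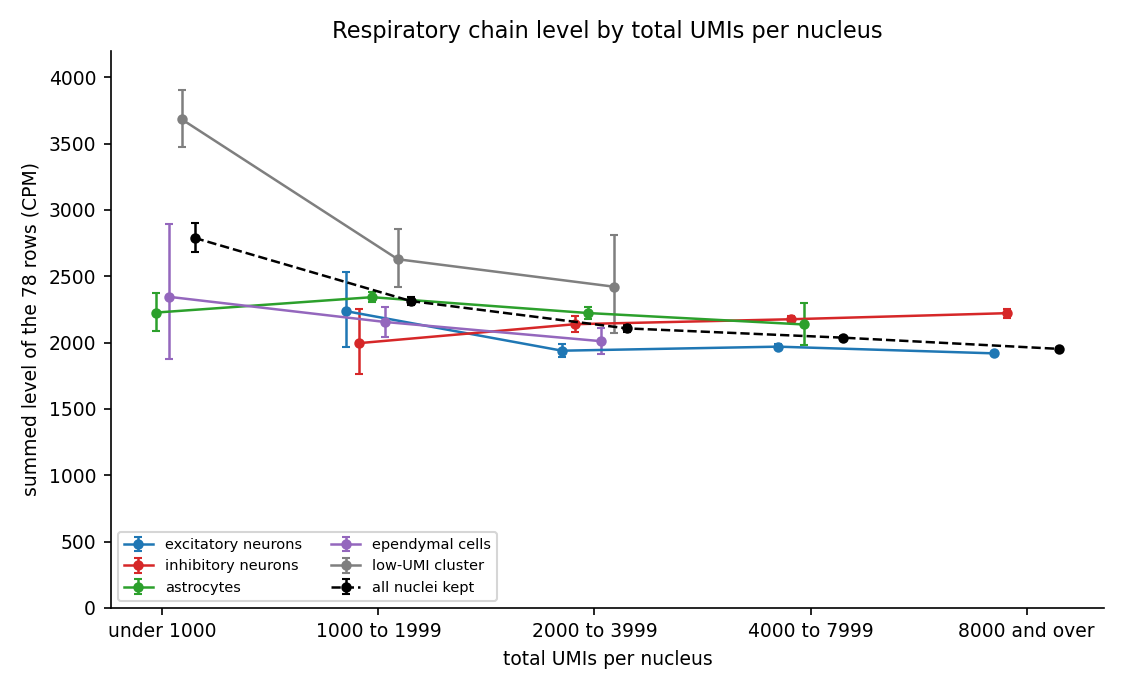
Summed level of the 78 rows in CPM (y axis, exact 95% intervals) by bin of total UMIs per nucleus (x axis) for 4 classes, the low-UMI cluster and all nuclei kept. Pooled nuclei go from 2789 to 1952 CPM across the bins, whereas astrocytes stay between 2136 and 2342 CPM.

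The low-UMI cluster had 3150 CPM (3010 to 3295), with 3108, 2933 and 3377 CPM in the sets. Its larger sub-cluster, 530 nuclei with a median of 547 UMIs, reached 3612 CPM, and the other, 183 nuclei with a median of 1371 UMIs, had 2589 CPM. Cytosolic ribosomal protein genes, a list set beside the members, stood at 2630 CPM in the larger sub-cluster against 647 CPM in excitatory neurons and 902 CPM in astrocytes. Both groups of transcripts were thus higher in that sub-cluster than in every named class.

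Excitatory and inhibitory neurons differed by a small shift shared by most members. A row counted as measured where either class had at least 50 UMIs and the level in the higher class would give at least 10 UMIs in each. Of 71 measured members, 0 lay 2-fold or more above and 0 lay 2-fold or more below in excitatory neurons, beside 8.66% and 8.33% of all 7554 genes measured. The median member log2 ratio was −0.20, against −0.10 over all genes, and 55 of the 71 members were lower in excitatory neurons. Above 0 lay 16 of the 71 members, beside 3165 of all 7554 genes. The ratio of summed levels was −0.18 (−0.19 to −0.16) on the log2 scale. The shift was found for complex I accessory subunits (479 against 582 CPM, log2 −0.28), complex III (154 against 182 CPM, −0.24) and ATP synthase (235 against 265 CPM, −0.17). For complex I core subunits (202 against 212 CPM) and complex II subunits (85.6 against 88.2 CPM) it was −0.07 and −0.04. The interval of the latter held 0, and its direction flipped to 0.02 under median-ratio scaling. That scaling moved the ratio of complex I core subunits to −0.003 and that of all members to −0.11.

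The member farthest apart between the neuronal classes was NDUFB9, an accessory subunit of the membrane arm of complex I, which was singled out after its values were seen. It had 12.2, 12.3 and 12.6 CPM in the 3 sets of excitatory neurons and 23.3, 24.8 and 21.1 CPM in those of inhibitory neurons. These sets did not overlap, and the log2 ratio was −0.90 (−1.05 to −0.76). NDUFS4, an accessory subunit and the most abundant member of its group, had 79.8 and 102 CPM (log2 −0.36, −0.42 to −0.29). NDUFAF2 hardly differed, at 209 and 213 CPM.

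Against astrocytes, excitatory neurons were lower for most members, with 16 of 70 measured members above 0, beside 2970 of all 7317 genes. A subset lay 2-fold or more below, most of them in complex IV. Of 70 measured members, 0 lay 2-fold or more above and 8 lay 2-fold or more below, beside 13.9% and 19.5% of all 7317 genes, so the share of members past 2-fold was below the background in both directions. The median member log2 ratio was −0.26 against −0.19 over all genes, and the log2 ratio of summed levels was −0.24 (−0.26 to −0.22). Median-ratio scaling moved the median over all genes to −0.03 and the ratio of summed levels to −0.09. The 8 lower members were COX7C, NDUFA4, SDHAF2, COX7B and COX20, which the naming rule gave, and COX6B1, ATP5MC3 and ATP5IF1, named after their values were seen.

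**Figure D3:**
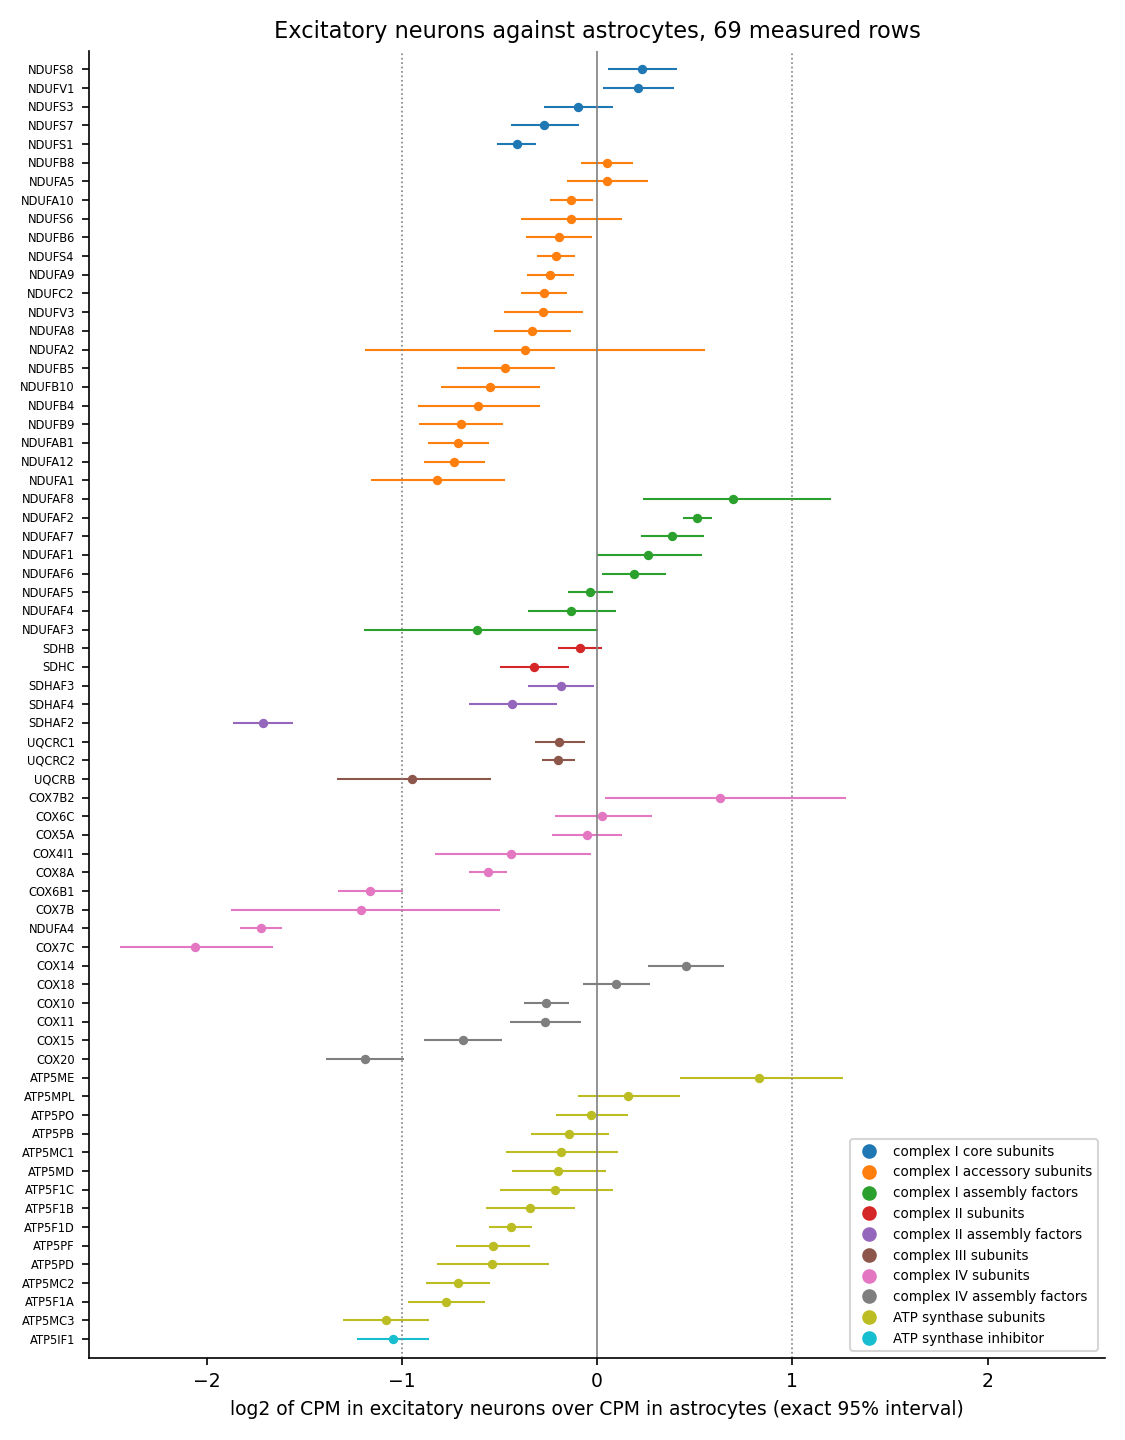
Log2 ratio of CPM in excitatory neurons over CPM in astrocytes (x axis, exact 95% intervals) for 69 of the 70 measured rows (y axis), grouped and coloured by role, with dotted lines at 2-fold. The 8 points left of the lower dotted line include 4 complex IV subunits, and COX7C lies lowest at −2.06.

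NDUFA4, first described with complex I and now counted as a subunit of complex IV, had the most UMIs of the 8. It stood at 27.7, 27.6 and 27.1 CPM in the sets of excitatory neurons and at 99.0, 87.5 and 84.4 CPM in those of astrocytes. The sets lay far apart, with a log2 ratio of −1.72 (−1.83 to −1.61) and −1.58 after thinning. Inhibitory neurons were close to excitatory ones at 34.7 CPM. All 8 glial and vascular classes were higher, from 55.0 CPM in committed oligodendrocyte precursors to 114 CPM in microglia (29 UMIs). The low-UMI cluster reached 196 CPM. NDUFA4 also depended on depth within classes: excitatory neurons had 72.2 CPM at 1000 to under 2000 UMIs, 38.0 at 2000 to under 4000, 32.8 at 4000 to under 8000 and 24.5 at 8000 and over. Astrocytes had 96.7, 82.7 and 57.5 CPM in the first 3 of those bins. Within each shared bin their value was above that of excitatory neurons, by less than 2-fold in the shallowest and the deepest. The shallowest excitatory value came from 65 nuclei with 110867 UMIs of all genes. It rested on few NDUFA4 UMIs, and a difference in that bin is not settled.

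SDHAF2, the factor that helps attach FAD to the catalytic subunit of complex II, showed another pattern. It had 12.4, 13.9 and 14.3 CPM in the sets of excitatory neurons and 46.3, 43.9 and 42.4 CPM in those of astrocytes (log2 −1.71, −1.86 to −1.56). Its level hardly moved with depth, from 13.3 to 13.9 CPM over excitatory nuclei of at least 2000 UMIs and from 43.3 to 48.1 CPM over the astrocyte bins. Unlike NDUFA4 it was high in astrocytes among the glia: ependymal cells had 25.8 CPM (18.5 to 35.2), oligodendrocyte precursors 21.3, oligodendrocytes 21.9 and microglia 27.5 CPM (7 UMIs). The interval of microglia overlapped that of astrocytes, and those of the other 3 did not. CPSF7, a neighbour of SDHAF2, was also higher in astrocytes, at 55.9 CPM against 28.6 in excitatory and 37.4 in inhibitory neurons. Its highest class was microglia, at 70.7 CPM (18 UMIs). Whether reads of neighbouring transcripts add to the SDHAF2 row was not tested.

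COX6B1, a subunit on the intermembrane-space side of complex IV, stood at 15.4 CPM in excitatory and 20.9 CPM in inhibitory neurons and at 34.4 CPM in astrocytes. The log2 ratio of excitatory neurons to astrocytes was −1.16 (−1.33 to −0.99), and at 2000 to under 4000 UMIs the levels were 18.5 and 39.6 CPM. COX20, which chaperones a mitochondrially encoded subunit during complex IV assembly, had 10.8 and 24.7 CPM (log2 −1.19, −1.39 to −0.99), and −0.88 after thinning, which is short of 2-fold. COX7B, a small accessory subunit, rested on 91 and 24 UMIs (log2 −1.21, −1.87 to −0.50).

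**Figure D4:**
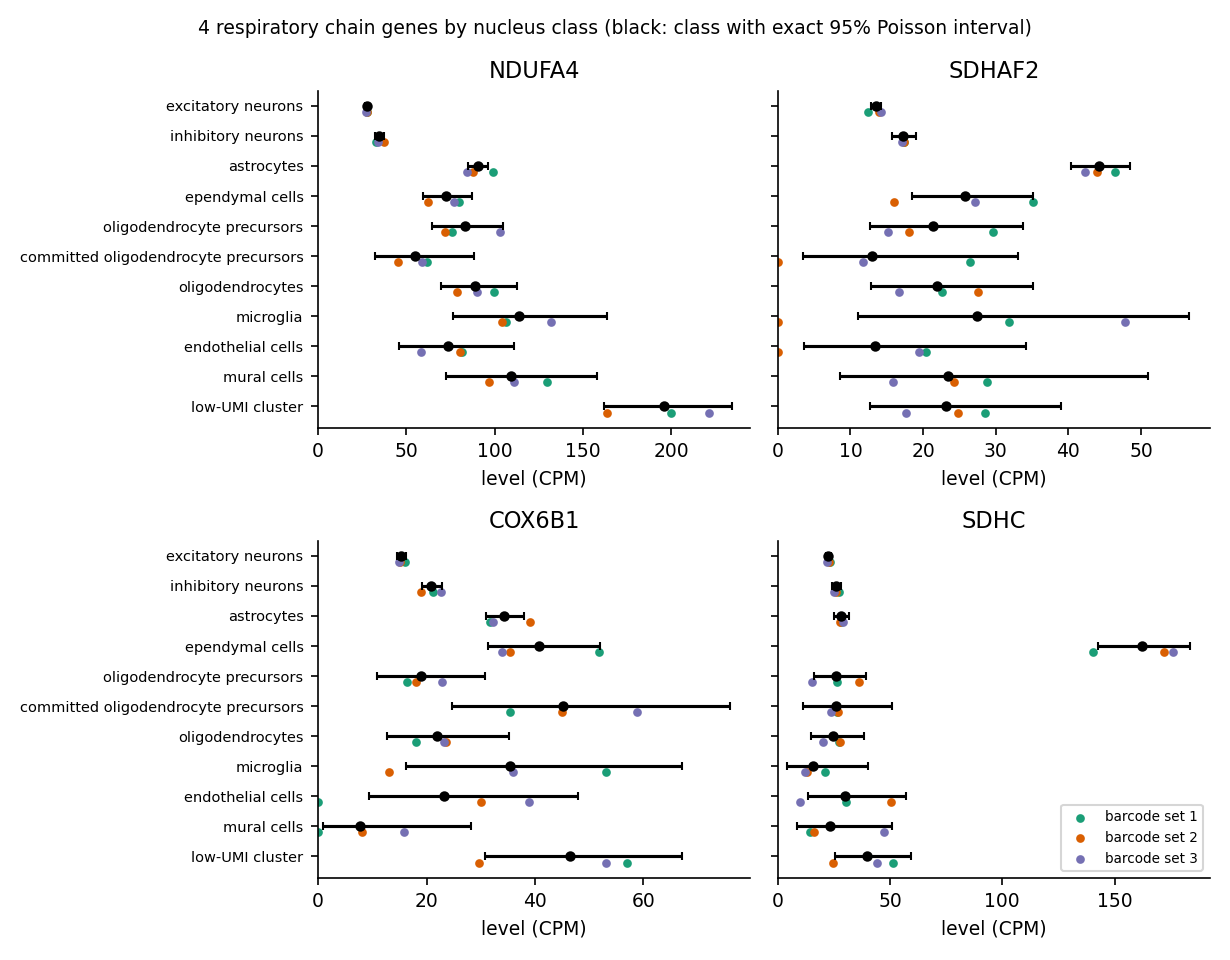
Levels of NDUFA4, SDHAF2, COX6B1 and SDHC in CPM (x axes) by class and in the low-UMI cluster (y axes), with exact 95% intervals in black and barcode sets as coloured points. NDUFA4 is lowest in both neuronal classes, SDHAF2 is highest in astrocytes at 44.3 CPM, and SDHC is highest in ependymal cells at 162 CPM.

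COX7C, another small subunit of complex IV, gave the largest ratio but not a settled one. The row named by symbol had 1.84 CPM in excitatory neurons and 7.64 in astrocytes (173 and 82 UMIs, log2 −2.06, −2.44 to −1.66). The row that a reference table names COX7C by its Ensembl identifier had 9.75 and 10.8 CPM (919 and 116 UMIs). The difference was thus in only 1 of the 2 rows of this gene, and counts split between them cannot be told apart from a difference in the gene.

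Among ATP synthase genes, ATP5IF1, the protein that blocks ATP hydrolysis by the enzyme, had 13.4 CPM in excitatory neurons and 27.8 CPM in astrocytes (log2 −1.05, −1.23 to −0.86), and −0.81 after thinning. ATP5MC3, 1 of the genes for the membrane ring subunit c, had 9.19 and 19.5 CPM (−1.08). Its paralogs ATP5MC1 and ATP5MC2, which encode the same mature protein, had 9.34 and 10.6 CPM and 20.5 and 33.6 CPM. At the other end, ATP5ME, a subunit of the membrane part, had 8.77 and 4.94 CPM and was the highest member relative to astrocytes (log2 0.83, 0.43 to 1.26).

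Among roles with more than 1 member, complex IV subunits were farthest below astrocytes, at 160 against 281 CPM (log2 −0.82, −0.87 to −0.76). NDUFA4 alone made up 27.4 and 90.5 CPM of these sums. At least 2-fold lower were 4 of 9 measured subunits. They include COX7C, whose ratio is not settled, and COX7B, which rested on few UMIs. Complex II assembly factors had 53.7 against 92.8 CPM (−0.79), most of it SDHAF2. Complex I accessory subunits (479 against 581 CPM, −0.28), ATP synthase (235 against 304 CPM, −0.37), complex III (154 against 179 CPM, −0.22) and complex I core subunits (202 against 220 CPM, −0.12, which flipped to 0.03 under median-ratio scaling) were nearer. Complex I assembly factors alone were higher in excitatory neurons, at 388 against 311 CPM (log2 0.32, 0.27 to 0.37). That sum was led by NDUFAF2, at 209 against 146 CPM (log2 0.51, 0.44 to 0.59). Of the 8 assembly factors, 5 had a ratio above 0, beside 2970 of all 7317 genes. NDUFAF7, which methylates a core subunit, had 42.0 and 32.2 CPM.

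Of the most abundant members of each role, NDUFA4 and SDHAF2 are described above, and those that follow were less than 2-fold from astrocytes. NDUFS1, the largest iron-sulfur subunit of complex I, had 65.4 CPM in excitatory neurons and 87.0 in astrocytes (log2 −0.41), and NDUFS8, another iron-sulfur subunit, had 31.0 and 26.5 CPM. UQCRC2, a core protein of complex III, had 105 and 121 CPM, and UQCRC1 had 45.9 and 52.4 CPM. SDHB, the iron-sulfur subunit of complex II, was nearly level at 62.9 and 66.9 CPM, with an interval that held 0. COX8A, a small complex IV subunit, had 65.1 and 95.9 CPM (−0.56, −0.65 to −0.46), and COX10, which makes the haem A precursor, had 54.8 and 65.7 CPM. ATP5F1D, a subunit of the central stalk, had 53.7 and 73.0 CPM, and ATP5PO, which joins the peripheral stalk to the catalytic head, had 24.5 and 25.1 CPM. Of these 9 members, NDUFS8 alone was higher in excitatory neurons with an interval clear of 0.

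At matched depth fewer members could be measured. At 2000 to under 4000 UMIs, with 890 excitatory and 1647 astrocyte nuclei, 51 members were measured, of which 0 lay 2-fold or more above and 6 lay as far below in excitatory neurons. Of all 4578 genes measured in that bin, 12.9% and 19.4% did, so the members' share was below the background here too. The 6 lower members were COX20, NDUFA4, ATP5F1B, NDUFA12, SDHAF2 and COX6B1, listed after their values were seen, and 4 of them are among the 8 above.

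Ependymal cells, which line the ventricles and carry motile cilia, differed from astrocytes at SDHC, a membrane anchor of complex II. SDHC had 141, 172 and 176 CPM in the sets of ependymal cells and 28.1, 27.7 and 28.9 CPM in those of astrocytes. The sets were far apart, with 251 and 303 UMIs and a 5.74-fold ratio (log2 2.52, 2.27 to 2.77), and the log2 ratio after thinning was 2.62. The other 9 classes had 15.7 to 29.98 CPM. Ependymal bins of 1000 to under 2000 and 2000 to under 4000 UMIs gave 164 and 153 CPM. SDHB, its partner, did not follow, at 62.6 against 66.9 CPM, and the SDHD row named by identifier had 20.02 CPM (31 UMIs) against 15.7 CPM. CFAP126, a cilia gene beside SDHC in the RefSeq table of T2T-MMU8v2.0, was looked up after this value was seen and was also higher in ependymal cells, at 17.4 CPM (27 UMIs) against 0.75 CPM. Whether reads of neighbouring transcripts add to the SDHC row was not tested.

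Apart from SDHC the ependymal level was near or below that of astrocytes. Of 63 measured members, 1 lay 2-fold or more above and 4 lay as far below, beside 11.5% and 11.4% of all 5589 genes, and the median log2 ratio was −0.24 against −0.07 over all genes. The lower members were ATP5MPL (4 ependymal UMIs, log2 −2.29, −4.19 to −0.90), ATP5MD (10 UMIs, −1.24, −2.33 to −0.33), NDUFB4 (7 UMIs) and NDUFA1 (6 UMIs). ATP5MPL and ATP5MD encode small membrane subunits of ATP synthase, and NDUFB4 and NDUFA1 small accessory subunits of complex I. The intervals of NDUFB4 and NDUFA1 held 0, so neither difference exceeded the counting error. ATP synthase subunits summed to 231 against 304 CPM (log2 −0.40, −0.56 to −0.24), and complex II subunits to 225 against 95.5 CPM (1.24), which rested on SDHC.

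Microglia had the highest sum of the named classes from the fewest UMIs per nucleus. Of 24 measured members, 0 lay 2-fold or more above astrocytes and 0 lay as far below, beside 19.0% and 15.1% of all 3096 genes. The log2 ratio of summed levels was 0.12 (0.01 to 0.24) and turned to −0.06 under median-ratio scaling, with a median of 0.24 over all genes before that scaling. Complex IV assembly factors had 287 against 192 CPM (log2 0.58, 0.22 to 0.92), and complex I assembly factors had 287 against 311 CPM. Of single members, COX18, which inserts a complex IV subunit into the membrane, had 55.0 CPM from 14 UMIs against 29.0 CPM, and was picked after its values were seen. Ribosomal protein genes, at 1260 against 902 CPM (log2 0.48), lay farther above astrocytes than the respiratory chain.

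In the oligodendrocyte lineage the level differed little over all nuclei of each class. Oligodendrocytes had 2056 CPM (1957 to 2160), their precursors 2170 CPM (2071 to 2271) and committed precursors 2059 CPM (1902 to 2226). At 2000 to under 4000 UMIs oligodendrocytes had 1906 and precursors 2224 CPM (108 and 215 nuclei, log2 −0.22, −0.37 to −0.07). At 1000 to under 2000 UMIs the log2 ratio was 0.04 (−0.12 to 0.20). Of 10 measured members, 0 lay 2-fold or more above the precursors and 0 lay as far below, beside 14.2% and 17.7% of all 1980 genes. COX8A had 117 against 65.2 CPM (91 and 55 UMIs, log2 0.85, 0.35 to 1.36), with the same direction in all 3 sets, and NDUFAF2 had 130 against 200 CPM (−0.62, −0.99 to −0.26). In committed precursors, COX14, a complex IV assembly factor, had 77.6 CPM (24 UMIs, 49.7 to 115) against a median class of 27.4 CPM. Of its neighbours in the RefSeq table, GPD1 also had its highest class level there, at 51.7 CPM, and CERS5 its lowest, at 22.6 CPM (7 UMIs). COX14 was picked after its values were seen, and its neighbours were looked up then.

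Mural cells and endothelial cells allowed almost no comparison of single members, since 1 was measured. It was NDUFAF2, at 238 and 223 CPM, so that 0 lay 2-fold or more above and 0 lay as far below, beside 13.6% and 20.3% of all 832 genes. The summed level was 2378 against 2158 CPM (log2 0.14, −0.02 to 0.30). Of the paralogs known from vascular and low-oxygen settings, NDUFA4L2 had 15.6 CPM in mural cells (4 UMIs), 6.66 CPM in endothelial cells (2 UMIs) and 0.80 CPM in excitatory neurons. COX4I2, the paralog of COX4I1, had 2 UMIs in mural cells (7.80 CPM), 9 in excitatory neurons, 2 in astrocytes and none in the other classes. COX4I1 itself had 4.26 CPM in excitatory neurons and 5.78 in astrocytes. COX6B2, the paralog of COX6B1, had 4 UMIs in excitatory neurons. Counts this low show only that these rows were detected.

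Within the neuronal classes, clusters differed about as much as the classes did. Among excitatory neurons the 6 clusters ran from 1799 to 1981 CPM, 1.10-fold, and 13 sub-clusters from 1731 to 2052 CPM, 1.19-fold. Among inhibitory neurons the 4 clusters ran from 2070 to 2284 CPM, 1.10-fold, and 11 sub-clusters from 1952 to 2485 CPM, 1.27-fold. The lowest inhibitory sub-cluster thus lay below the highest excitatory one, although every inhibitory cluster lay above every excitatory cluster.

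**Figure D5:**
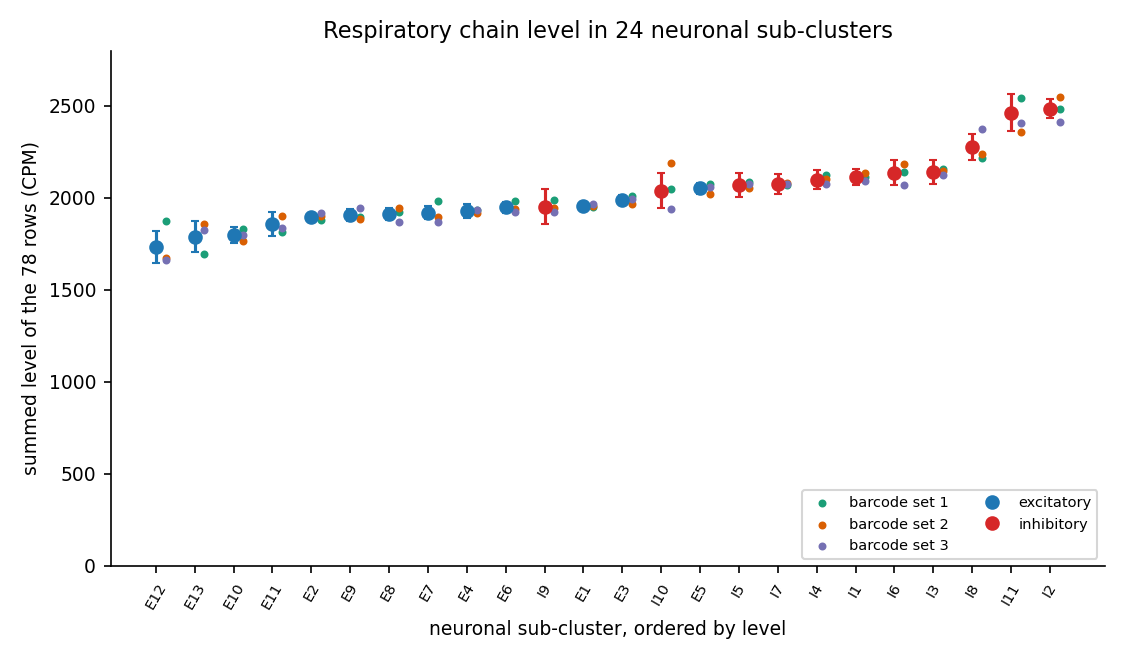
Summed level of the 78 rows in CPM (y axis, exact 95% intervals, barcode sets as small points) in 24 neuronal sub-clusters ordered by level (x axis, E for excitatory and I for inhibitory). Sub-clusters I2 and I11, at 2485 and 2462 CPM, stand above the others, and E12, at 1731 CPM, is the lowest.

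Sub-clusters I2 and I11 had the highest levels and were picked for that, so their values are a description. I2, with 484 nuclei, had 2482, 2547 and 2412 CPM in the sets, all above the 2135 CPM of the other 3637 inhibitory nuclei. LHX6, a transcription factor of interneurons from the medial ganglionic eminence, stood at 190 CPM in I2. Sub-clusters I1, I7 and I10 had similar LHX6 levels of 206, 202 and 179 CPM, with respiratory chain levels of 2116, 2075 and 2038 CPM. I2 had most PVALB UMIs of the inhibitory sub-clusters (22 UMIs, 6.1 CPM). PVALB marks a fast-spiking interneuron type, and its count here is low. The median of 7103 UMIs per nucleus in I2 was above that of the whole class, 5636, and in the bins above the inhibitory level was also higher in deeper nuclei. The part of depth in the level of I2 was not tested.

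The higher level of I2 was spread over many members. In it, 54 of 67 measured members (80.6%) had a ratio above 0, beside 43.1% of all 6147 genes. Because I2 was picked for its member sum, a high share follows in part from the pick and is no separate support. NDUFA12, an accessory subunit of complex I, was at least 2-fold higher (63.3 against 31.5 CPM, log2 1.01, 0.78 to 1.23) and 0 members were at least 2-fold lower, beside 2.15% and 5.87% of all genes. All 14 ATP synthase subunits were above 0, summing to 316 against 256 CPM, 1.23-fold, as were all 6 complex I core subunits, 1.27-fold (1.18 to 1.36). Glycolysis genes were 1.25-fold higher (307 against 245 CPM), and ribosomal protein genes were lower at 620 against 679 CPM. I11, with 116 nuclei and 2542, 2358 and 2407 CPM in the sets, was 1.13-fold (1.09 to 1.18) above the other inhibitory nuclei. Of its 58 measured members, 0 lay 2-fold or more above and 0 lay as far below, beside 2.42% and 4.70% of all genes.

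Other genes of energy metabolism, listed by pathway, were set beside the members for excitatory neurons against astrocytes. Their counts are to be read against the 13.9% of all genes that lay 2-fold or more above and the 19.5% that lay as far below. Of 27 other respiratory chain genes and assembly factors, 0 were at least 2-fold higher and 1 lower, UQCC3, a complex III assembly factor (1.80 against 6.43 CPM), and the log2 ratio of their sums was −0.19. Of 11 measured glycolysis genes, 0 were at least 2-fold higher and 5 lower. The farthest were the hexokinase HK2 (log2 −4.32), the aldolase ALDOC (18.0 against 72.6 CPM) and LDHA (−1.32), and the sums had a log2 ratio of −0.62. Of 21 genes of the tricarboxylic acid cycle and pyruvate dehydrogenase, 1 was higher and 3 lower, both shares below those of all genes. PDK3, a kinase that inhibits pyruvate dehydrogenase, had 99.8 against 34.1 CPM, and its paralog PDK4 (log2 −6.64) and the ligase subunit SUCLG2 (−2.15) were lower. The carriers and channels of the inner and outer membrane were lower too, with 2 of 8 past 2-fold, the ATP/ADP carriers SLC25A5 (−1.72) and SLC25A6 (−1.21). All of these sums were below astrocytes, and that of the respiratory chain members (−0.24) was among the nearest to 0.

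Of 11 measured regulators of mitochondrial biogenesis, 1 was at least 2-fold higher and 3 lower, beside the same 13.9% and 19.5% of all genes. PPARGC1B, a coactivator, had 157 CPM in excitatory neurons against 13.5 CPM in astrocytes (log2 3.54), and its paralog PPARGC1A had 39.6 against 139 CPM (−1.81). NRF1, a transcription factor that binds promoters of many respiratory chain genes, was lower (−1.90). Of 8 measured hypoxia genes, 1 was higher, the neuronal glucose transporter SLC2A3, and 4 lower, among them EPAS1. Between excitatory and inhibitory neurons, the shares of all genes were 8.66% above and 8.33% below. SUCLG2, 1 of 20 measured genes of its list, and HK2, 1 of 11, lay 2-fold or more above in excitatory neurons. Of 8 hypoxia genes, 2 lay as far below, EGLN3 and VEGFA. Of 11 biogenesis genes and 8 carriers and channels, 0 were past 2-fold.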

How the data were processed

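Per the labels' protocols, nuclei from frozen amygdala were loaded at 15000 per channel for 9000 expected, with a version 2 kit, and read at 150 bp paired-end. The submitters' processing notes name fastp, Cell Ranger 3.0.0 and GRCh38. GRCh38 is a human build, whereas the table also holds macaque Ensembl identifiers, so the build behind the counts is not settled here. Whether intronic reads were counted is not given in the sources used here. The authors deposited raw UMI counts, 19708 genes by 26400 nuclei, in 3 barcode sets of 9201, 8900 and 8299 nuclei. 

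The nuclei with the highest Scrublet scores in each set (0.8% per 1000 nuclei, 1862 in all) were left out as presumed doublets. Nuclei were scaled to 10000 UMIs, logged and clustered with scanpy 1.11.5 (2000 variable genes, 30 components, 15 neighbours, Leiden 0.5, 19 clusters) on 9784 genes. The other 9924 genes, chosen by a hash of the symbol with the members and energy lists added, stayed out of clustering, and only they form the background of all genes. Classes were named from 92 markers, with naming thresholds set after the data were seen. No name was given to clusters whose median doublet score exceeded 0.06, among them some with oligodendrocyte and microglial markers. Levels are summed deposited counts per 1000000 UMIs of the class (CPM), with exact Poisson intervals, or exact binomial ones for ratios. Thinning drew 1000 UMIs per nucleus. The scripts were tested on simulated data.

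Members and lists were chosen with earlier results of these data known. Named by rule were, for each comparison, up to 5 members per direction at least 2-fold apart with the same direction in every set, the 2 members of each role with most UMIs, fixed paralog pairs, and in other lists up to 3 genes with the largest ratio. The kinases named RPS6K were left out of the ribosomal protein list of 67 genes. 1 member's values are not reported here.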

Additional observations from a re-analysis of the deposited data

How the results depend on the processing

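The ratio of the highest to the lowest class was 1.17 within nuclei of 2000 to under 4000 UMIs, where microglia and mural cells were too few, and 1.16 under median-ratio scaling. It was 1.25 to 1.31 leaving out 1 barcode set. Excitatory neurons were above inhibitory ones (log2 of sums 0.16) within nuclei of 1000 to under 2000 UMIs, with 65 and 83 nuclei and an interval that held 0, and microglia were below astrocytes (−0.061) under median-ratio scaling. Counts of members past 2-fold moved as follows, each with the number measured and, in brackets, the share of all genes. Thinned, 1 of 64 was lower in excitatory than in inhibitory neurons (7.31%) and 5 of 64 were lower than in astrocytes (17.9%). In microglia, 2 of 10 were higher (20.9%). At 1000 to under 2000 UMIs, 1 of 8 was lower in excitatory neurons than in astrocytes (20.4%). In that bin 2 of 11 were higher in microglia (19.8%). In ependymal cells, 1 of 51 was lower at 2000 to under 4000 UMIs (13.1%) and 2 of 65 with doublets kept (9.05%). With a minimum of 200 UMIs, 0 of 46 were lower there (12.2%). Under median-ratio scaling, 2 of 63 were higher and 2 lower (13.1% and 9.95%). By the mean over nuclei, 2 of 63 were higher and 7 lower (11.4% and 11.5%). That mean also gave 1 of 24 higher in microglia (19.0%). Clustering on all genes gave 1 of 34 lower in microglia (13.9%). A minimum of 20 UMIs gave 1 of 74 lower in excitatory than in inhibitory neurons (9.52%). It gave 1 of 34 higher and 3 lower in oligodendrocytes (11.5% and 15.6%), and 2 of 8 lower in mural cells (16.1%). At 1.5-fold, 6 of 71 were lower in excitatory than in inhibitory neurons (16.7%). Against astrocytes, 3 of 70 were higher and 18 lower in excitatory neurons (21.1% and 31.6%). In oligodendrocytes, 2 of 10 were higher and 1 lower (22.9% and 25.7%). Ependymal cells had 2 of 63 higher and 12 lower (18.4% and 20.7%), and microglia 8 of 24 higher and 1 lower (33.9% and 21.3%). Barcode sets 1, 2 and 3 were also left out in turn. In microglia, 1 of 12, 2 of 16 and 2 of 16 were then higher (20.9%, 19.98% and 20.6%). In excitatory neurons, 6 of 70, 9 of 69 and 9 of 69 were lower than in astrocytes (18.97%, 19.2% and 19.1%). In ependymal cells, 5 of 58, 3 of 58 and 4 of 59 were lower (12.1%, 12.3% and 11.7%). Against inhibitory neurons, 1 of 71 was higher in excitatory neurons without set 2 (8.44%). Against astrocytes, 1 of 69 was higher in excitatory neurons without set 3 (13.9%). Without either other set, 0 were higher in each of these comparisons. The cause of these moves was not tested, except that a lower threshold or minimum counts more members by construction. The fold ratios of the 10 members past 2-fold named by rule kept their direction under every setting in which they were measured. No mural class formed at Leiden 1.0 or with doublets kept. Leaving out the excitatory cluster highest in PROX1 was added after the data were seen, and no direction changed. With few UMIs in the small classes, differences under 2-fold in single members were mostly not detectable there. No paired analysis was possible because no label ties nuclei to a sample.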
